A study of Mus musculus with 13 samples.

Results

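The genes described here encode the cold-inducible RNA-binding proteins CIRBP and RBM3, the 4 CDC-like kinases CLK1 to CLK4, and 4 SR splicing proteins that these kinases phosphorylate. They are *Cirbp*, *Rbm3*, *Clk1*, *Clk2*, *Clk3*, *Clk4*, *Srsf2*, *Srsf3*, *Srsf5* and *Srsf7*, chosen by name as genes tied to temperature-dependent RNA processing. Earlier results of these data were known when the genes were chosen. The members are 10 of the 34419 genes in the count table, and all 10 were among the 17779 genes that passed a filter on low counts and were tested. Subcutaneous gluteal white adipose tissue (WAT) was collected from male C57BL/6J mice bred and kept at 22°C (7 mice) or 29°C (6 mice) until 13 weeks of age. The lower temperature is that of a standard animal room and the higher one is thermoneutral for a mouse. The labels name no altered allele or drug. Every mouse lost its posterior hair after weaning and was kept alone with minimal bedding, so neither group kept its full insulation. RNA from each mouse was 1 library, and the question asked of these genes is whether their messenger RNA differed in WAT between the housing temperatures.

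CIRBP and RBM3 are small glycine-rich proteins with a single RNA recognition motif, and their messenger RNAs rise in many cultured mammalian cells when the temperature falls by a few degrees. They bind messenger RNAs and are known to influence their stability, translation and the choice of polyadenylation site. CLK kinases phosphorylate the arginine-serine repeats of SR proteins, and CLK1 and CLK4 are known to be more active at lower body temperature, an activity that is set on the protein. SR proteins bind exons and help to select splice sites, and most SR and CLK genes limit their own output by making transcripts that are degraded or kept in the nucleus.

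Total counts were between 22356637 and 22857079 in 22°C replicates 1 to 5, and between 24821549 and 25245785 in the other 8 libraries, which were 22°C replicates 6 and 7 and all 6 libraries from 29°C. Library total and temperature therefore overlapped only through 2 mice at 22°C, and values within the 8 libraries of higher total are given where they bear on a result. The least covered value of a member was 372 reads in 1 library. Levels are CPM, counts scaled to the TMM-adjusted library total, fold changes are 22°C relative to 29°C, and P-adj is the Benjamini-Hochberg adjusted p of edgeR's quasi-likelihood test over all genes tested, with P-adj below 0.1 called changed. The adipocyte marker list had a summed level of 11580 to 17960 CPM at 22°C and 14710 to 17650 CPM at 29°C, and each of its 7 genes was detected in every mouse. Of these 7, *Lep*, which encodes leptin, was called lower at 22°C (edgeR log2 fold change -0.78, SE 0.15, P-adj = 0.0564), beside 1.21% of all genes called lower. DESeq2 also called 1 of the 7 lower. With a covariate for muscle markers or for the 2 ranges of library total, edgeR called 0 of them. The 7 genes had a median of -0.20. Skeletal muscle markers summed to between 682 and 75220 CPM at 22°C and between 86.7 and 5941 CPM at 29°C, so the amount of muscle RNA differed widely between mice. In whole tissue, fewer cells of a type and less RNA per cell cannot be told apart.

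Promoter windows were compared first because *Cirbp* is the classical cold-responsive gene of the set. Windows of 300 bases, reaching from 250 bases before to 50 bases after a gene's start, were taken from RefSeq on the GRCm38.p6 build, and 8 of the 10 genes matched. *Rbm3* and *Clk1* had no window there, so their promoters were not searched. The motifs searched on both strands were the GC box GGGCGG, which Sp1 family factors bind, the E-box CACGTG of clock factors, the heat shock element GAANNTTC, and the 8 bases TCCCCGCC, described in *Cirbp* as a mild-cold responsive element. The last motif was added after the *Cirbp* window had been read, and it can share bases with a GC box. The *Cirbp* window at chr10:80167589-80167888 (plus strand) and the *Srsf7* window at chr17:80207256-80207555 (minus strand) are shown because only these held TCCCCGCC, with motif matches in capitals.
Cirbp: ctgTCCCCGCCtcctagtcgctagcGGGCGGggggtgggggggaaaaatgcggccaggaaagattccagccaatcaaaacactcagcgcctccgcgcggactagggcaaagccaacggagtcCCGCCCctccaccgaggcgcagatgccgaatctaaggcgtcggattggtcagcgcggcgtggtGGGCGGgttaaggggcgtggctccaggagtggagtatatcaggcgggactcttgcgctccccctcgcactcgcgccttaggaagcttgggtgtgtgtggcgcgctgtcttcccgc
Srsf7: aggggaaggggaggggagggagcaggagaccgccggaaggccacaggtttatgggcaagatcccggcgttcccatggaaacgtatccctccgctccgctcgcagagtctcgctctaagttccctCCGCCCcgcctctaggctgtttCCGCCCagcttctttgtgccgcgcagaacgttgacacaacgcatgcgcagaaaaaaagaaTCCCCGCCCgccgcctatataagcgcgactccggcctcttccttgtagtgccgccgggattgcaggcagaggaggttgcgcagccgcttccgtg
In *Cirbp*, TCCCCGCC lies at bases 4 to 11 and GC boxes at bases 26 to 31, 123 to 128 and 186 to 191. In *Srsf7*, TCCCCGCC at bases 207 to 214 overlaps a GC box at bases 210 to 215. TCCCCGCC was in 5.38% of 32851 RefSeq windows, and 3 or more GC boxes were in 10.7% of them. A second *Cirbp* window, at chr10:80167921-80168220, held 4 GC boxes and no TCCCCGCC. Among the other members, the *Srsf2* window held 5 GC boxes, those of *Srsf5* and *Srsf7* held 3 each, and the *Srsf3* window held none. The *Cirbp* windows were 65.7% and 70.0% G and C and those of the other members 56.0% to 74.7%, compared with a median of 52.7% over all windows. No heat shock element was found in any member's window, and the single E-box lay in the *Clk2* window, beside 7.86% and 7.15% of all windows with each.

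*Cirbp* (ENSMUSG00000045193.14, chromosome 10) was higher in the cool-housed mice. At 22°C its level was 47.6, 46.2, 42.7, 44.0, 41.6, 30.0 and 33.1 CPM in replicates 1 to 7. At 29°C it was 17.7, 27.0, 26.5, 22.5, 27.3 and 15.7 CPM in replicates 1 to 6. No mouse at 29°C reached the lowest of the cool-housed mice, although the step from 27.3 to 30.0 CPM between the groups was small. The 22°C mice averaged 40.8 ± 6.68 CPM (SD, n = 7), and the 29°C mice 22.8 ± 5.08 CPM (SD, n = 6). The log2 fold change was 0.84 (SE 0.15), a 1.79-fold difference with a 95% interval of 1.42- to 2.24-fold, and it passed the threshold (P-adj = 0.046, edgeR). *Cirbp* was 1 of the 10 members called, against 1.94% of all genes tested, and 0.731% called in the same direction. It was also the 1 member whose groups did not overlap, as for 0.495% of all genes with the higher values at 22°C. Because the members were chosen with earlier results known, these shares are given as a description only.

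The size of the *Cirbp* difference moved with library total. At 22°C the 5 libraries of lower total held 41.6 to 47.6 CPM, whereas the 2 of higher total held 30.0 and 33.1 CPM, a difference of 0.49 on the log2 scale within the same temperature. Within the 8 libraries of higher total, the 2 mice at 22°C remained above all 6 mice at 29°C, but the log2 fold change was 0.46 (edgeR P-adj = 0.425, SE 0.22). With a covariate for the 2 clusters of totals it was 0.47 (SE 0.18; P-adj = 0.321), and with the muscle score as a covariate it was 0.76 (SE 0.17; P-adj = 0.141), so that the call was lost in each of these fits. Leaving out each mouse in turn kept P-adj between 0.0263 and 0.0894. Why library total and *Cirbp* moved together at 22°C was not tested.

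*Rbm3* (ENSMUSG00000031167.17, chromosome X), the closest relative of *Cirbp* in the set, showed a smaller difference that did not pass the threshold. Its level was 138, 116, 111, 105, 107, 118 and 111 CPM in replicates 1 to 7 at 22°C. It was 98.6, 85.6, 93.4, 90.0, 83.2 and 115 CPM in replicates 1 to 6 at 29°C. All 7 mice at 22°C were above 5 of the 6 mice at 29°C, and replicate 6 at 29°C lay within the range of the cool-housed mice. The means were 115 ± 11.2 CPM (SD, n = 7) and 94.3 ± 11.5 CPM (SD, n = 6), and the log2 fold change was 0.29 (edgeR P-adj = 0.126, SE 0.08), with a 95% interval of 1.08- to 1.39-fold. *Rbm3* passed with DESeq2 (P-adj = 0.0416), by which 2 of the 10 members and 10.2% of 16388 genes were called. When mice were left out one at a time, edgeR called *Rbm3* in 1 of 13 fits, and P-adj reached 0.243. The fit that passed left out replicate 6 at 29°C (P-adj = 0.0909), which is not corrected for the choice of that mouse. Without the filter on low counts *Rbm3* did not pass (edgeR P-adj = 0.256). Unlike that of *Cirbp*, the estimate for *Rbm3* hardly moved with library total, but it passed in neither of these fits. It was 0.28 with the cluster as a covariate (SE 0.13, edgeR P-adj = 0.369). Within the libraries of higher total it was 0.27 (SE 0.12, edgeR P-adj = 0.397). *Rbm3* reads cannot be told apart from those of the overlapping antisense gene *Rbm3os*, because the strand setting of the counting is not given in the sources used here. *Rbm3os* was counted at 21.8 ± 2.18 CPM at 22°C and 16.4 ± 3.31 CPM at 29°C, with a log2 fold change of 0.41 (edgeR P-adj = 0.118, SE 0.11; 0.0294, DESeq2). The pseudogene *Rbm3-ps* was counted at under 1.01 CPM in every library, so reads placed on it were few beside those of *Rbm3*.

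**Figure D1:**
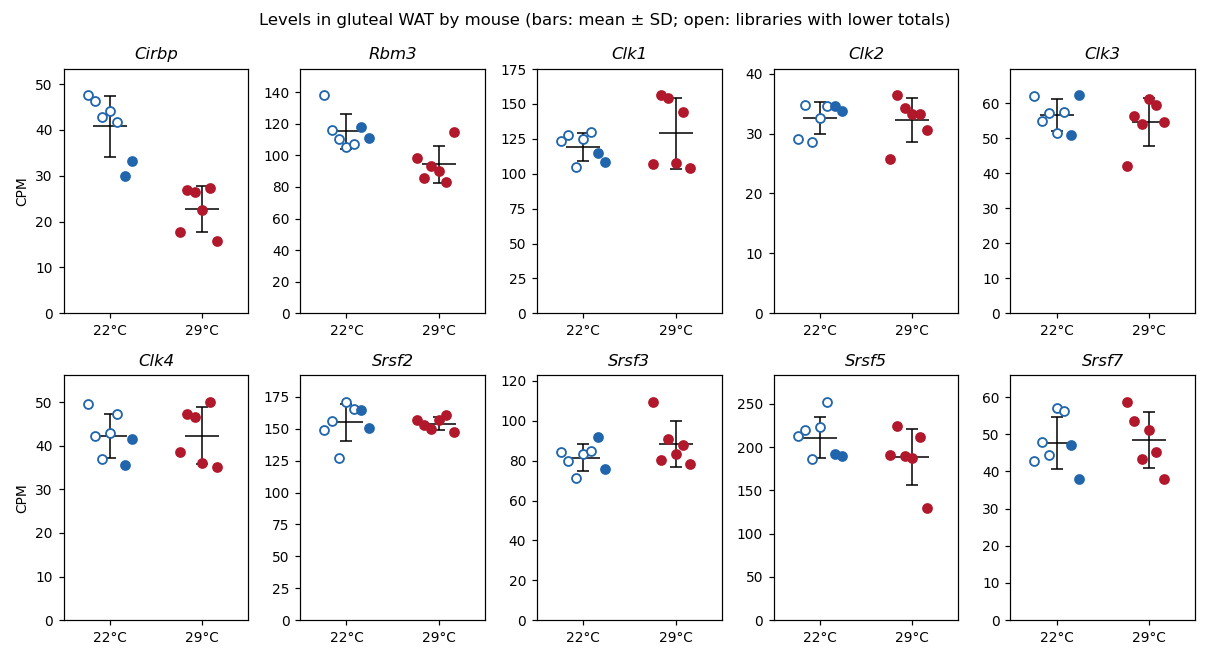
Level of each gene in CPM (vertical axes, from 0) in every mouse at 22°C (blue, 7 mice) and 29°C (red, 6 mice), with the mean ± SD in black and libraries of lower total drawn open. *Cirbp* lies between 30.0 and 47.6 CPM at 22°C and between 15.7 and 27.3 CPM at 29°C, and the groups overlap for the other 9 genes.

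Within a mouse, the balance of the 2 cold-inducible genes did not differ past correction. The log2 ratio of *Cirbp* to *Rbm3* averaged -1.51 ± 0.26 in the 22°C mice (SD, n = 7) and -2.07 ± 0.50 in the 29°C mice (SD, n = 6), a difference of 0.56. This gave p = 0.0245 in a two-sided exact permutation test and 0.147 after adjustment over the 6 ratios tested. Without replicate 1 or replicate 6 at 29°C, p rose to 0.053 in each case, and within the libraries of higher total the difference was 0.21. At 29°C the mice with the least *Cirbp* had the most *Rbm3*: replicate 6 had 15.7 and 115 CPM, and replicate 1 had 17.7 and 98.6 CPM. Over the 6 mice at 29°C Pearson's r of log2 CPM was -0.905 (two-sided exact permutation p = 0.0194, 0.116 adjusted over 6 correlations) and Spearman's rho was -0.943 (exact p = 0.0167, 0.1 adjusted). The relation rests on replicates 1 and 6, since r was -0.427 without them. Over the 7 mice at 22°C r was 0.199 (exact permutation p = 0.782) and rho was 0.143 (exact p = 0.783), and r was 0.826 over the 5 libraries of lower total. The difference in r between temperatures was not tested.

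**Figure D2:**
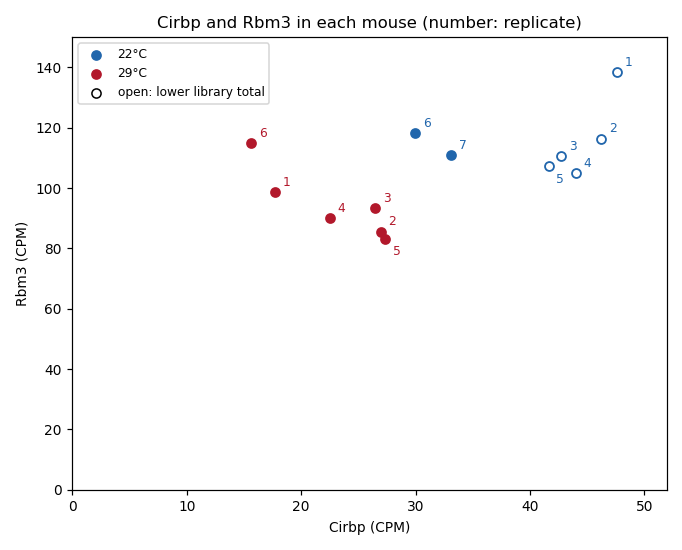
*Cirbp* (horizontal axis, CPM) against *Rbm3* (vertical axis, CPM) in each mouse, numbered by replicate, with libraries of lower total drawn open. The 29°C mice run from replicate 6 (15.7 and 115 CPM) down to replicate 5 (27.3 and 83.2 CPM), and all 22°C mice lie further to the right.

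The 4 CLK kinase genes did not differ detectably between temperatures. *Clk1* (ENSMUSG00000026034.18, chromosome 1), which encodes the best studied of these kinases, was 124, 128, 104, 125, 130, 115 and 108 CPM in replicates 1 to 7 at 22°C. At 29°C it was 107, 157, 154, 108, 144 and 104 CPM in replicates 1 to 6. Replicates 2, 3 and 5 at 29°C lay above all cool-housed mice and replicates 1, 4 and 6 near the lowest of them, and the SD was 25.2 CPM at 29°C and 9.97 CPM at 22°C around means of 129 and 119 CPM. The log2 fold change of -0.11 (edgeR P-adj = 0.633, SE 0.11) had a 95% interval of 0.782- to 1.09-fold.

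*Clk4* (ENSMUSG00000020385.17, chromosome 11), the closest paralog of *Clk1*, ranged from 35.5 to 49.6 CPM with a median of 42.2 at 22°C, and from 35.1 to 50.1 CPM with a median of 42.6 at 29°C. The ranges nearly coincided, and the log2 fold change was 0.00 (edgeR P-adj = 0.998, SE 0.10), with an interval of 0.856- to 1.17-fold. *Clk2* (ENSMUSG00000068917.13, chromosome 3), a kinase also tied to insulin signalling in liver, ranged from 28.6 to 34.8 CPM (median 33.8) at 22°C and from 25.8 to 36.5 CPM (median 33.2) at 29°C. Its log2 fold change was 0.02 (edgeR P-adj = 0.944, SE 0.08; 0.895- to 1.14-fold). *Clk3* (ENSMUSG00000032316.9, chromosome 9), known as an abundant kinase of testis, ranged from 51.0 to 62.4 CPM (median 57.3) at 22°C and from 41.9 to 61.2 CPM (median 55.5) at 29°C. Its log2 fold change was 0.05 (edgeR P-adj = 0.782, SE 0.08; 0.915- to 1.18-fold), and replicate 1 at 29°C, at 41.9 CPM, was well below the other 5. In the M21 annotation *Clk3* overlaps *Edc3*, and *Clk4* overlaps *BC049762*, both on the opposite strand, so their counts may hold reads of these neighbours.

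The SR protein genes likewise stayed within the spread between mice. *Srsf2* (ENSMUSG00000034120.19, chromosome 11), whose product binds exonic enhancers from within the nucleus, ranged from 127 to 171 CPM (median 156) at 22°C and from 147 to 161 CPM (median 155) at 29°C. The 29°C values lay inside the 22°C range, and the log2 fold change was 0.01 (edgeR P-adj = 0.965, SE 0.07; 0.909- to 1.11-fold). *Srsf3* (ENSMUSG00000071172.14, chromosome 17), the smallest SR protein and an export adaptor, was 84.2, 79.8, 71.2, 83.3, 84.8, 91.7 and 75.7 CPM in replicates 1 to 7 at 22°C. At 29°C it was 110, 80.5, 90.6, 83.4, 88.1 and 78.2 CPM in replicates 1 to 6. Replicate 1 at 29°C was the highest of all mice while the other values overlapped, and the log2 fold change was -0.12 (edgeR P-adj = 0.476, SE 0.08; 0.816- to 1.04-fold). *Srsf5* (ENSMUSG00000021134.18, chromosome 12), an SR protein known to respond to insulin, was 213, 220, 187, 224, 253, 192 and 190 CPM in replicates 1 to 7 at 22°C. At 29°C it was 191, 224, 189, 187, 211 and 130 CPM in replicates 1 to 6. Replicate 6 at 29°C was far below the rest, and the log2 fold change of 0.16 (edgeR P-adj = 0.483, SE 0.12; 0.941- to 1.33-fold) was 0.07 without it. *Srsf7* (ENSMUSG00000024097.12, chromosome 17), the closest paralog of *Srsf3*, ranged from 38.1 to 57.1 CPM (median 47.0) at 22°C and from 38.1 to 58.8 CPM (median 48.2) at 29°C. Its log2 fold change was -0.02 (edgeR P-adj = 0.942, SE 0.11; 0.831- to 1.17-fold). *Srsf2* overlaps *Mettl23* and *Mfsd11* on the opposite strand in the annotation.

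Of the 8 CLK and SR genes, none was called by edgeR or by DESeq2, and none had an unadjusted p below 0.05, beside 1.94% and 10.2% of genes called by these tools. Their log2 fold changes ran from -0.12 to 0.16 with a median of 0.00, against a median of 0.01 over all genes tested. Of the 10 members 7 had positive and 3 had negative values in the fit without a covariate. With the library-total cluster as a covariate, the 8 CLK and SR genes ran from -0.21 (*Clk1*, SE 0.17) to 0.08 (*Clk2*, SE 0.12). In that fit *Srsf7* was -0.18 (SE 0.16), *Clk4* -0.14 (SE 0.15) and *Srsf5* 0.02 (SE 0.17), and none was called. The SEs of the 8 CLK and SR genes without a covariate were 0.07 to 0.12. The widest of their 95% intervals, that of *Srsf5*, reached 1.33-fold, and the upper ends of the others were lower. Differences within these intervals cannot be told from none with this number of mice.

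**Figure D3:**
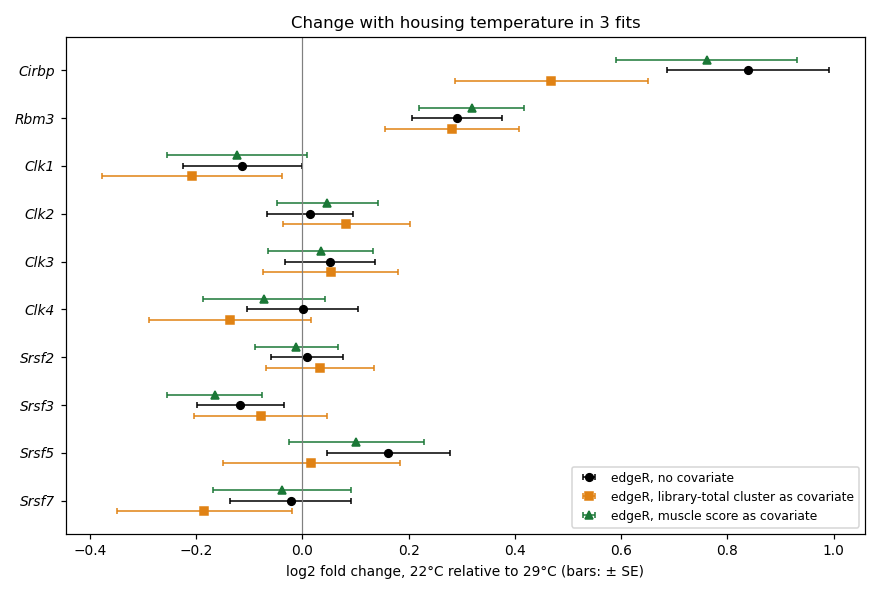
Log2 fold change, 22°C relative to 29°C (horizontal axis; bars are ± SE), of each gene in edgeR without a covariate (black circles), with the library-total cluster (orange squares) and with the muscle score (green triangles). *Cirbp* goes from 0.84 to 0.47 with the cluster as a covariate, and *Rbm3* stays at 0.28 to 0.32. The CLK and SR genes lie between -0.21 (*Clk1* with the cluster) and 0.16 (*Srsf5* without a covariate).

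Other ratios of paralogs within a mouse were also compared, since they do not depend on the scaling of libraries. The log2 ratio of *Srsf5* to *Srsf7* averaged 2.15 ± 0.14 in the 22°C mice (SD, n = 7) and 1.96 ± 0.21 in the 29°C mice (SD, n = 6), with p = 0.0734 in the exact permutation test and 0.22 adjusted over 6. Each mouse was left out in turn, and without replicate 5 at 29°C the exact permutation p was 0.0278. That p is unadjusted and not corrected for the choice of that mouse. *Clk1* to *Clk4* ranged from 1.32 to 1.69 at 22°C and from 1.47 to 1.72 at 29°C (exact permutation p = 0.15, 0.225 adjusted). *Srsf2* to *Srsf3* gave 0.92 ± 0.09 and 0.81 ± 0.16 (exact permutation p = 0.136, 0.225 adjusted). *Clk1* to *Clk2* gave 1.87 ± 0.13 and 1.98 ± 0.20 (exact permutation p = 0.233, 0.28 adjusted), and *Clk2* to *Clk3* gave -0.80 ± 0.20 and -0.76 ± 0.11 (exact permutation p = 0.66, 0.66 adjusted). None of these ratios differed after correction.

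Per kilobase of exon, which allows levels to be compared between genes, the SR genes *Srsf5* and *Srsf2* were highest, with 53.0 ± 5.94 and 52.4 ± 4.99 CPM per kb at 22°C. Here, genes whose means ± SD overlap are said to lie within their spread, as these did. *Rbm3* followed with 24.6 ± 2.38 CPM per kb. *Cirbp* at 15.7 ± 2.56, *Clk1* at 14.7 ± 1.23 and *Srsf7* at 13.4 ± 1.97 CPM per kb lay within their spread. *Srsf3* had 10.3 ± 0.844 CPM per kb, and *Clk4* (7.30 ± 0.875), *Clk3* (6.70 ± 0.544) and *Clk2* (6.15 ± 0.498) were lowest and lay within their spread. At 29°C *Srsf2* had 52.1 ± 1.71 and *Srsf5* 47.3 ± 8.14 CPM per kb, again within their spread, well above the rest, and *Rbm3* followed at 20.1 ± 2.44 CPM per kb. *Clk1* had 15.9 ± 3.10, *Srsf7* 13.6 ± 2.12 and *Srsf3* 11.2 ± 1.44 CPM per kb. *Cirbp* had rank 7 of the 10, compared with rank 4 at 22°C, at 8.75 ± 1.95 CPM per kb, and *Clk4* (7.30 ± 1.13), *Clk3* (6.46 ± 0.806) and *Clk2* (6.09 ± 0.700) were again lowest. From *Rbm3* down, each gene lay within the spread of its neighbour in this order at 29°C. The lengths join the exons of all transcripts in the GENCODE M21 annotation, so a gene with long rare exons appears lower than its main transcript is.

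All 10 genes have at least 1 annotated transcript that is a target of nonsense-mediated decay, as 27.5% of the 14314 tested protein-coding genes do. All 10 also have at least 1 transcript with a retained intron, as 55.6% of those genes do, and all 10 have more transcripts than the median gene, which has 5. *Clk4* has 14 annotated transcripts, 7 with a retained intron, and *Clk1* has 13, also 7 with one. The deposited counts merge all transcripts of a gene, so a change in splicing of these genes, or in the activity of the kinases, was not measured.

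Among mice of 1 temperature, *Clk1* and *Clk4* had positive correlations, which did not pass correction and are given as a description. Pearson's r of their log2 CPM was 0.684 at 22°C (two-sided exact permutation p = 0.0992, 0.198 adjusted; rho 0.643, exact p = 0.139) and 0.942 at 29°C (exact permutation p = 0.075, 0.198 adjusted; rho 0.771, exact p = 0.103). Without the 2 mice farthest from the median of *Clk1*, r was 0.752 and 0.979. *Srsf3* and *Srsf7* had r of 0.433 at 22°C (exact permutation p = 0.344, 0.413 adjusted; rho 0.357, exact p = 0.444) and 0.581 at 29°C (exact permutation p = 0.222, 0.333 adjusted; rho 0.429, exact p = 0.419). At 29°C the latter rests on replicates 1 and 6, without which r was -0.993. Neither pair passed correction over the 6 correlations. The lowest unadjusted p of these pairs was 0.075, in the exact permutation test of *Clk1* and *Clk4* at 29°C.

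In single mice several of these genes deviated from their group mean together. The share of all genes below the mean in a mouse was not counted, so the counts given here have no background to be compared with. In replicate 6 at 29°C, 7 of the 8 CLK and SR genes were below their group mean, by 0.21 on average on the log2 scale, and this mouse also had the lowest *Cirbp* and the least muscle RNA, 86.7 CPM over the muscle list. In replicate 7 at 22°C, which had the most muscle RNA at 75220 CPM, 6 of the 8 were below their group mean as well. In replicate 3 at 22°C 7 of the 8 were below the mean, and in replicate 5 at 22°C none was. The part of tissue composition in these shifts was not tested.

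**Figure D4:**
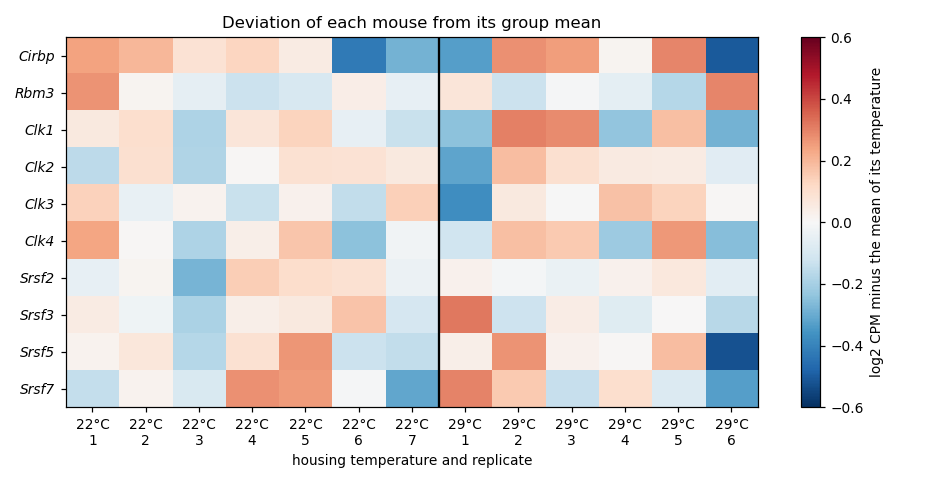
Log2 CPM of each gene minus the mean of its temperature (color scale, red above and blue below) in each mouse, with the groups divided by a black line. Replicate 6 at 29°C is low in *Cirbp* and in 7 of the 8 CLK and SR genes and high in *Rbm3*.

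The genes most like *Cirbp* in their deviations from the group means over the 13 libraries were *Ssbp2* (r = 0.952), *Snord35b* (0.942), *Cep97* (0.939), *Pan2* (0.926) and *Itpr2* (0.923), given as a description. None of these was called between temperatures (edgeR P-adj from 0.414 to 0.822), and *Snord35b* had a mean of only 0.647 CPM. Of the other members, *Clk4* (r = 0.764), *Clk1* (0.753) and *Srsf5* (0.711) were most like *Cirbp*, while *Rbm3* had r of -0.451. For *Clk1* the most similar were *Sox7* (0.942), *Slc28a2* (0.929), *Map4k2* (0.897), *Ankrd16* (0.887) and *3830408C21Rik* (0.879), with *Clk4* (0.839) at rank 24 of all genes tested. These values share the normalization of each library. A library with more muscle RNA or lower total could therefore weigh on all of them, which was not tested.

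Genes that work beside these in RNA processing were counted by role. The share of all genes with an unadjusted p below 0.05 was not counted. List counts at that cut, here and in the marker lists below, therefore have no background to be compared with. None of 13 other SR and SR-like proteins was called by edgeR or DESeq2 (1 lower at an unadjusted p below 0.05), and their median log2 fold change was 0.00. The most abundant were the scaffold *Srrm2* (log2 fold change 0.21, SE 0.10), *Son* (0.05, SE 0.08) and *Acin1* (-0.04, SE 0.05). Of 11 other SR kinases and phosphatase subunits none was called by edgeR (4 higher and 1 lower at an unadjusted p below 0.05) and 2 were called higher by DESeq2, which called 5.58% of all genes higher. The most abundant were the catalytic phosphatase subunits *Ppp1ca* (0.04, SE 0.09) and *Ppp1cb* (0.31, SE 0.16), and the SR kinase *Srpk2* (-0.14, SE 0.06). Of 10 other glycine-rich or cold-shock-domain genes none was called by edgeR (3 higher at an unadjusted p below 0.05) and 2 were called higher by DESeq2, beside the same 5.58%. Among the most abundant were the Y-box genes *Ybx1* (0.13, SE 0.10) and *Ybx3* (0.61, SE 0.27). With the muscle score as a covariate, *Ybx1* was 0.05 (SE 0.10) and *Ybx3* 0.16 (SE 0.26). In that fit *Ppp1cb* was 0.09 (SE 0.15), whereas *Ppp1ca* was 0.12 (SE 0.09). *Srpk3* and *Rbm24*, named after their values were seen, had the highest fold changes of these lists, 2.45 (SE 0.97) and 3.36 (SE 1.19). Both are known for their expression in skeletal muscle and both were among the DESeq2 calls. The part of muscle RNA in them was not tested.

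A few genes of the splicing machinery itself had lower values at 22°C. Of 26 heterogeneous nuclear ribonucleoprotein (hnRNP) genes 2 were called lower and none higher by edgeR, against 1.21% of all genes called lower. DESeq2 called 4 of them lower and 1 higher, against 4.65% and 5.58% of all genes. *Hnrnpc*, which coats nascent transcripts, ranged from 86.3 to 106 CPM in the 7 mice at 22°C and from 108 to 122 CPM in the 6 mice at 29°C, with no overlap, as for 0.748% of all genes in that direction (log2 fold change -0.27, SE 0.06, edgeR P-adj = 0.0714). *Hnrnpr*, a related RNA-binding protein, was 50.1 ± 1.21 and 56.7 ± 3.09 CPM (-0.18, SE 0.04; P-adj = 0.0896, edgeR). The most abundant, *Hnrnpu* (-0.09, SE 0.06), *Pcbp2* (0.12, SE 0.06) and *Hnrnpk* (-0.05, SE 0.06), were not called. Of 26 core spliceosome genes DESeq2 called 3 lower and none higher, and edgeR called 1 lower, *Prpf3* of the U4/U6 particle, with 16.3 to 18.2 and 19.4 to 23.1 CPM and no overlap between the groups (-0.28, SE 0.06; P-adj = 0.0699, edgeR). *Prpf8* (-0.00, SE 0.08), *Sf3b1* (-0.05, SE 0.06) and *Sf1* (-0.04, SE 0.07) were the most abundant and were not called. Counting values of any size, 17 of the hnRNP genes and 21 of the core spliceosome genes were lower, with medians of -0.06 and -0.05 against 0.01 over all genes. The calls of *Hnrnpc*, *Hnrnpr* and *Prpf3* were each lost with the muscle score (P-adj of 0.189, 0.261 and 0.155, edgeR) or the library-total cluster (0.299, 0.303 and 0.255) as a covariate. When mice were left out one at a time, they passed in 6, 2 and 9 of 13 fits.

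Of 4 genes tied to CIRBP and RBM3 in other cells, none was called by edgeR or DESeq2, and none had an unadjusted p below 0.05. *Rtn3*, a reticulon whose messenger RNA RBM3 binds in neurons, had a log2 fold change of -0.11 (SE 0.08). *Clock*, a circadian activator whose messenger RNA CIRBP binds in cultured cells, had 0.07 (SE 0.11), and *Hsf1*, the heat shock factor, had -0.12 (SE 0.08). The last of them, the channel gene *Trpv4*, had 0.03 (SE 0.19).

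**Figure D5:**
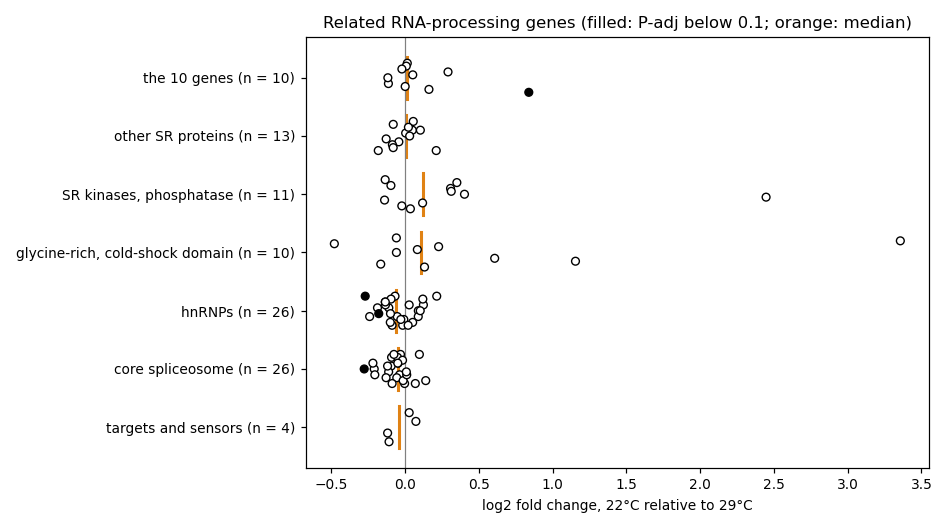
Log2 fold change, 22°C relative to 29°C (horizontal axis), of each tested gene of 7 lists of RNA-processing genes; filled points have P-adj below 0.1 in edgeR and orange lines are medians. The filled points are *Cirbp* at 0.84, *Hnrnpc* at -0.27, *Hnrnpr* at -0.18 and *Prpf3* at -0.28, and the far right points are *Rbm24* and *Srpk3*.

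Brown fat markers summed to 33.3 to 147 CPM at 22°C and 7.80 to 23.2 CPM at 29°C, and *Ucp1* and *Elovl3* were at 0 in some mice. *Cidea*, *Cox8b* and *Otop1*, 3 of 5 tested, were called higher by edgeR beside 0.731% of all genes. Of the 5, 4 had positive and 1 had a negative log2 fold change. With the muscle score as a covariate 2 were called higher, and with the library-total cluster 0. In 22°C replicates 1, 7 and 6 the brown markers summed to 147, 116 and 46.9 CPM. Muscle markers in these mice summed to 54360, 75220 and 1049 CPM. The part of muscle RNA in the brown marker difference was not tested further. The 10 muscle markers all had positive log2 fold changes, but none was called by edgeR (4 higher at an unadjusted p below 0.05), and 4 were called higher by DESeq2, beside 5.58% of all genes. Macrophage markers (274 to 601 and 325 to 592 CPM) and endothelial markers (393 to 553 and 397 to 581 CPM) had summed levels that overlapped between temperatures, as did lymphocyte (1.43 to 19.0 and 1.47 to 13.2 CPM), red blood cell (286 to 756 and 319 to 3370 CPM) and epithelial markers (0.296 to 36.8 and 0.0842 to 227 CPM). Of these lists, edgeR called only the T cell gene *Cd3e*, higher at 22°C (log2 fold change 1.78, SE 0.42, edgeR P-adj = 0.0817), 1 of 5 lymphocyte genes. DESeq2 called 0 of these 5, as did edgeR with the muscle score or the library-total cluster as a covariate, and their summed level was low. The part of the cell types marked by these lists in the *Cirbp* difference was not tested beyond the fit with the muscle score.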

How the data were processed

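Gluteal WAT RNA-seq of 13 mice was grouped by the housing temperature in the labels. The authors aligned reads with STAR 2.7.5a to the mouse genome (GRCm39 in the submitters' processing notes, mm10 in the paper's text for cultured cells), used featureCounts for gene counts and deposited the raw counts of 34419 genes. They also deposited regularized log2 values made with DESeq2, which were used only in an alternative with limma 3.58.1. The annotation and the strand setting are not given in the sources used here, so no gene coordinates are given. Symbols were matched by gene identifier for 34006 genes, and transcript types and exon lengths are from GENCODE M21 (GRCm38).

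Counts were compared with edgeR 4.0.16 in R 4.3.3 (TMM, filterByExpr, quasi-likelihood F test, no covariate). The SE was derived from the fold change and its F statistic (absolute log2 value over root F), and log2 CPM used a prior count of 2. Alternatives included DESeq2 1.42.0 and covariates for muscle score and library-total cluster, divided where the ordered totals lie farthest apart. The methods were tested on simulated data. Totals were 22356637 to 25245785 counts per library, and replicates are mice, so the spread between mice limits the precision. The members and lists were chosen with earlier results of these data known. The named genes are the 10 members, the called and the 3 most abundant genes of each list, and the 5 genes most like *Cirbp* or *Clk1*. *Srpk3*, *Rbm24*, *Trpv4*, *Rbm3os* and *Rbm3-ps* fall outside that rule, and 1 gene that the rule gives is not reported here.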

Additional observations from a re-analysis of the deposited data

Results flagged for a closer look

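Among 34 groups of values examined for a mouse far from the others, of which chance gives about 1 in 20, 3 held one. *Rbm3* was 138.4 CPM in 22°C replicate 1, while the other 6 mice at 22°C had between 105.1 and 118.2 CPM. *Clk3* was 41.92 CPM in 29°C replicate 1, while the other 5 mice at 29°C had between 54.1 and 61.23 CPM. *Rbm3os*, which overlaps *Rbm3* on the opposite strand, was 22.86 CPM in 29°C replicate 6, while the other 5 mice had between 13.85 and 16.47 CPM, and the same mouse had the highest *Rbm3* of its group.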

How the results depend on the processing

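The count of all genes called, 345, was 42 without a filter on low counts, 48 with the muscle score and 4 with the library-total cluster as a covariate, 8 within the higher totals, 1676 with DESeq2, 40 at P-adj below 0.05, and 32 to 652 when each mouse was left out (lowest without 29°C replicate 3, highest without 22°C replicate 6). The count of members called, 1, was 0 with either covariate and within the higher totals, 2 with DESeq2, and 1 to 2 when each mouse was left out. The other alternatives were DESeq2 size factors, a mean of at least 10 counts, robust fitting and limma, and *Cirbp* passed in each of these.

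Directions near 0 were not stable. *Clk4* was -0.00499 without a filter, -0.0717 with the muscle score, -0.136 with the cluster, -0.143 within the higher totals and -0.00103 with DESeq2. With the muscle score, *Srsf2* was -0.0115 and *Sf1* 0.00868. With the cluster and within the higher totals, *Son* was -0.0739 and -0.0813, *Ppp1ca* -0.0101 and -0.0197, *Prpf8* 0.0207 and 0.0135, *Clock* -0.164 and -0.172, and *Hsf1* 0.0200 and 0.0130. When each mouse was left out, log2 fold changes ran from -0.0416 to 0.0533 for *Clk2*, -0.0129 to 0.0872 for *Clk3*, -0.0474 to 0.0524 for *Clk4*, -0.0176 to 0.0506 for *Srsf2*, -0.0812 to 0.0425 for *Srsf7*, -0.0103 to 0.111 for *Ppp1ca* and -0.0401 to 0.0247 for *Prpf8*. The cause was not tested.

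The difference in log2 ratio ran from 0.398 to 0.651 for *Cirbp* to *Rbm3*, from -0.0783 to 0.00991 for *Clk2* to *Clk3* (0.0398 between medians) and from 0.143 to 0.248 for *Srsf5* to *Srsf7* when each mouse was left out. Without the 2 mice farthest from the median, r of *Cirbp* and *Rbm3* was 0.826 at 22°C and -0.427 at 29°C, and r of *Srsf3* and *Srsf7* at 29°C was -0.993.

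The labels do not say what mice with the same replicate number share. Deviations of same-numbered mice correlated with r of 0.513, 0.409, 0.348, 0.487, 0.0508 and 0.387, and 4 of the 6 numbers matched best with their own. This hints at a pairing, but not for every number, so the mice were compared unpaired. With the replicate number as a block, 214 genes were called, *Cirbp* was called (0.90, SE 0.11), *Hnrnpc*, *Hnrnpr* and *Prpf3* were not (P-adj of 0.114, 0.140 and 0.129, edgeR), and *Srsf7* was 0.0322.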
